A study of Caenorhabditis elegans with 36 samples.

Results

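The cytochrome P450 (CYP), UDP-glucuronosyltransferase (UGT) and glutathione transferase (GST) genes of *C. elegans* were followed through total, polysome and monosome RNA of *ppp-1* mutants. Members were taken by name, as every locus of the deposited table with a single gene name that starts with *cyp* followed by a number and a letter, with *ugt* or *gst* followed by a number, or with *gsto*. The rule found 189 members among the 38790 loci with 1 name, of 41875 loci in all. They comprise 80 CYP, 63 UGT and 46 GST genes, with *gsto-1* and *gsto-2* counted among the GST genes. The rule uses names alone.

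These families carry the first steps of chemical defence. CYP enzymes (phase I) use electrons from NADPH and molecular oxygen to add a reactive oxygen to fatty acids, sterols and foreign compounds. UGT and GST enzymes (phase II) then join a sugar or glutathione to such products so that they can be exported, and in the worm much of this takes place in the intestine. Several CYP genes instead serve the worm's own lipids, as in eggshell formation and in the making of signalling lipids.

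At day 1 of adulthood, animals carrying the allele *ppp-1(wrm10)* or the allele *ppp-1(wrm15)* were compared with WT (Bristol N2) animals. *ppp-1* encodes the gamma subunit of eIF2B, the factor that recharges the initiation factor eIF2 with GTP, and both alleles are point mutations from a mutagenesis screen that were outcrossed to WT. No group was treated, and all were grown on plates with *E. coli* OP50. Whole gravid adults were pooled and lysed with cycloheximide, and RNA came from the lysate (total RNA), from single ribosomes (monosome) and from heavier polysomes without disomes.

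The labels list 4 libraries in each of the 9 groups, 36 in all. The deposited table holds 1 FPKM value per group and locus (fragments scaled to transcript length and to the mapped fragments of the library), which the authors pooled over the libraries of the group. Every FPKM below is such a pooled value, so no spread between replicates can be given, the depth per library is unknown, and no difference was tested. A change is the log2 of (FPKM + 0.1) in a *ppp-1* allele minus that in WT, and it understates the change of genes near 0. Differences are described by size, at least 1.5-fold (0.585 on the log2 scale) in both alleles in the same direction. Counts of members past that size are set beside the share of all loci past it. Both alleles are compared with the same WT value, so their agreement is not independent. Whole animals were lysed, so fewer cells of a type and less RNA per cell cannot be told apart.

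Levels differed widely between members. Of the 189 members, 106 had a mean over the 9 groups of at least 1 FPKM, namely 34 CYP, 44 UGT and 28 GST genes. Among all loci with 1 name, 12488 reached it, and the changes below are described for these. A mean of 5 FPKM was reached by 60 members, and 3 members exceeded 100 FPKM. At the other end, *cyp-35D2* and *ugt-35* were listed at 0 in all groups.

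CYP genes were the least expressed of the families. The median member with a mean of at least 1 FPKM stood at 3.49 FPKM for CYP, 7.86 FPKM for UGT and 12.4 FPKM for GST genes. Within CYP, *cyp-31A2* led with 42.2 FPKM in *ppp-1(wrm10)*, 49.2 in *ppp-1(wrm15)* and 45.2 in WT total RNA. *cyp-31A3* (34.1, 37.2 and 35.6 FPKM) and *cyp-31A5* (34.6, 37.8 and 36.8 FPKM) followed in the same groups. The first pair is known to act with the P450 reductase EMB-8 in building the lipid layer of the eggshell. Together these 3 genes held 48.4% of the summed CYP signal of WT total RNA. The *cyp-31A5* locus spans 2.74 times its annotated gene and overlaps *Y62E10A.19* on the opposite strand, so its value may include other reads.

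The other families were each led by 1 gene. Among the sugar-transferring UGT genes, *ugt-62* had 128 FPKM in *ppp-1(wrm10)*, 159 in *ppp-1(wrm15)* and 147 in WT total RNA, 23.1% of the family's WT sum. Next came *ugt-22* (37.4, 34.6 and 37.2 FPKM) and *ugt-47* (34.9, 31.8 and 35 FPKM). Among the glutathione-transferring genes, *gst-1* had 190, 199 and 195 FPKM in the same order of groups, 30.3% of the family's WT sum. It was followed by *gst-7* (97.6, 107 and 99.1 FPKM) and *gst-27* (66.7, 67.7 and 81.1 FPKM). The *gst-1* locus of the table spans 14.63 times the length of its annotated gene and overlaps *lin-12* on the opposite strand, so its value may include reads of another transcript.

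**Figure D1:**
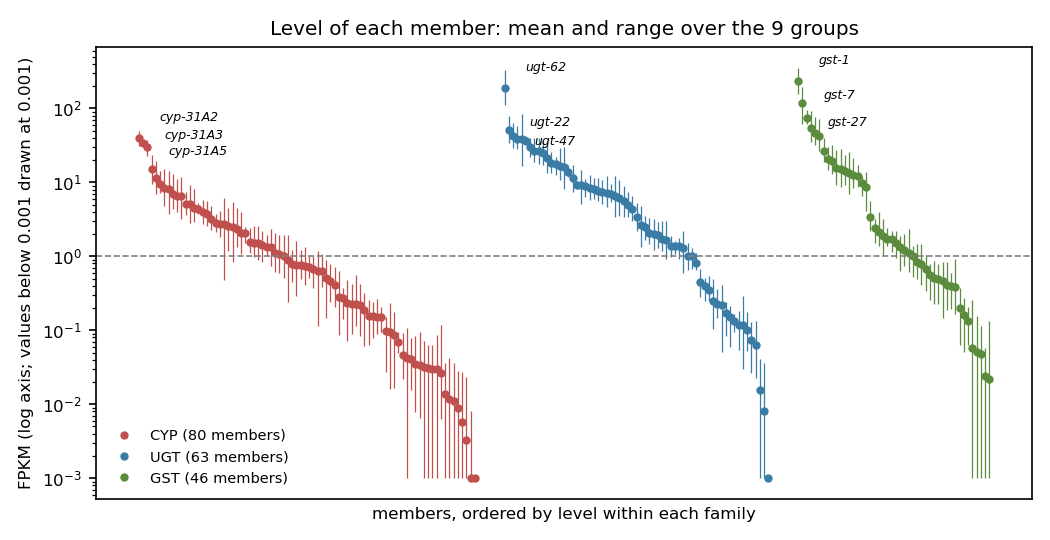
Mean FPKM over the 9 groups (points) and the range from the lowest to the highest group (lines) for 80 CYP, 63 UGT and 46 GST genes, ordered by level within each family on a log axis. The dashed line marks 1 FPKM, and the 3 highest genes of each family are named; *gst-1* and *ugt-62* lie above the rest, while the highest CYP gene is *cyp-31A2*.

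In WT animals most of these mRNAs were richer in polysomes than in total RNA. The polysome value was at least 1.5 times the total RNA value for 78 of the 106 members (73.6%), against 26.9% of all loci. The median of log2(polysome/total) was 0.78 for CYP, 0.78 for UGT and 0.96 for GST genes, while the median of all loci was 0.10. Monosome values lay closer to total RNA, with a median log2(monosome/total) of -0.18 for CYP, 0.04 for UGT and 0.04 for GST genes and of -0.05 for all loci. *gst-4*, a glutathione transferase widely used as a reporter of the oxidative stress factor SKN-1, had 28.3 FPKM in polysomes and 12.1 FPKM in total RNA of WT animals. For *gsto-1*, an omega-class transferase, these were 23.4 and 10.5 FPKM. The *gsto-1* locus spans 3.59 times its annotated gene and overlaps *kle-2* on the opposite strand.

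The *cyp-31A* genes stood apart from this. *cyp-31A2* had 40.7 FPKM in WT polysomes and 45.2 FPKM in WT total RNA, and *cyp-31A5* had 30.1 and 36.8 FPKM. The annotated pseudogene *cyp-31A1* had 0.51 FPKM in WT polysomes and 6.17 FPKM in WT total RNA, the lowest ratio of any member with a mean of at least 1 FPKM. The *cyp-31A* genes are near relatives of one another, so reads may have been divided among them in counting. Besides these 4 genes, *cyp-34A9* and *gst-16* were the members with a WT log2(polysome/total) below 0, at -0.03 and -0.27. Beside this, 8 germline and oocyte marker genes had a median WT log2(polysome/total) of -0.99, and 9 intestinal marker genes one of 0.71. Values near the intestinal one were common to most marker lists. Hypodermis had 0.69, body wall muscle 0.63, sperm 0.77, excretory canal 0.72 and coelomocyte 0.87, while neurons had 0.18. The part of tissue in the spread among members was not tested.

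**Figure D2:**
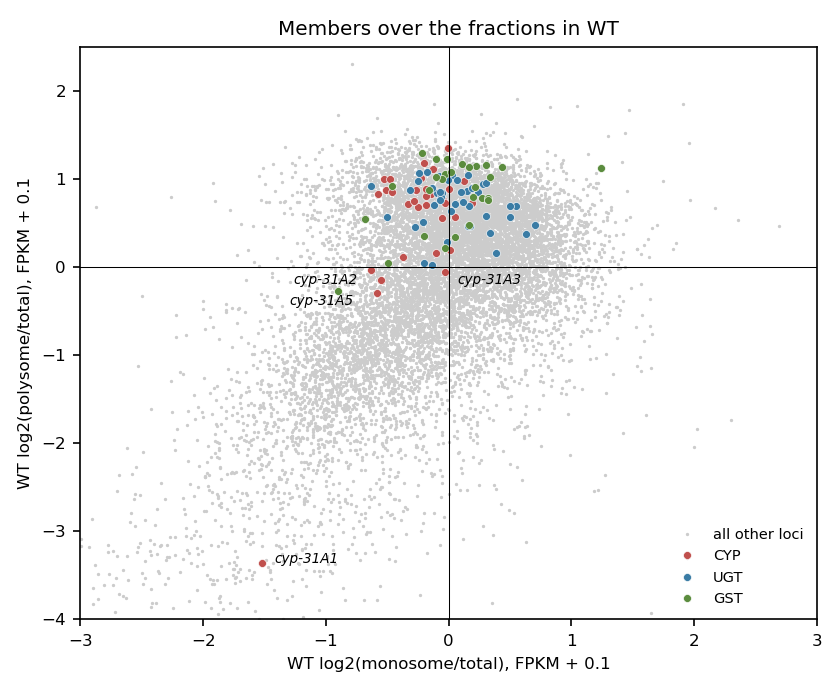
Log2(monosome/total) on the x axis and log2(polysome/total) on the y axis in WT, each from FPKM + 0.1, for 34 CYP, 44 UGT and 28 GST genes and for 12382 other loci (grey, of which 255 lie outside the axes). Most members lie above 0 on the y axis, and *cyp-31A1*, *cyp-31A2*, *cyp-31A3* and *cyp-31A5* are named.

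Few members differed by 1.5-fold or more from WT in both *ppp-1* alleles. In total RNA 1 member of 106 (0.943%) was higher in both, against 7.76% of all loci, and 0 members were lower, against 1.05%. In polysomes 0 members were higher, against 6.70% of all loci, and 2 members (1.89%) were lower, against 1.79%. In monosomes 1 member was higher, against 8.78%, and 1 was lower, against 1.39%. The member higher in total RNA and in monosomes was *cyp-25A1*. Those lower were *ugt-26* and *gst-35* in polysomes and *cyp-34A8* in monosomes. With a pseudocount of 1 FPKM in place of 0.1 FPKM, *ugt-26* in polysomes was the only one of these 5 calls left, and a size of 2-fold left 0.

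**Figure D3:**
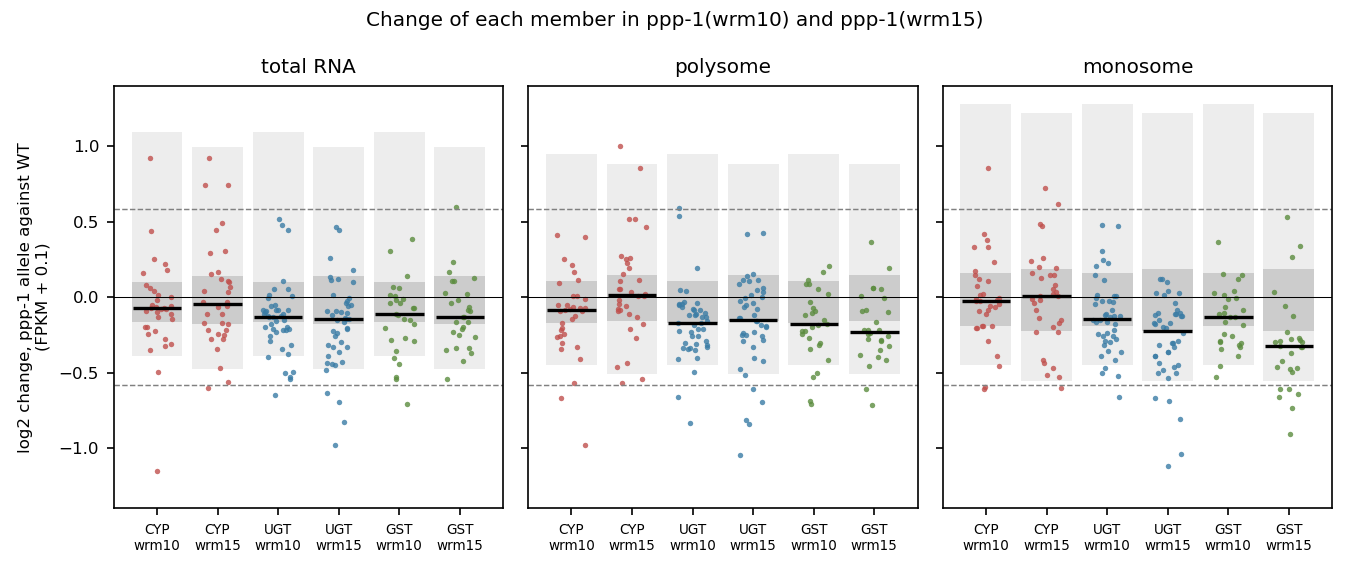
Log2 change against WT (y axis, FPKM + 0.1) of each of 106 members (points), by family and by allele (wrm10, wrm15) in total RNA, polysomes and monosomes. Black bars are family medians, dark and light grey bands hold the middle 50% and 90% of all loci, and dashed lines mark 1.5-fold; most members lie within these lines, and the UGT and GST medians lie below 0 in all panels.

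Below that size, UGT and GST values leaned to the lower side. For the UGT genes the median change in total RNA was -0.13 with *ppp-1(wrm10)* and -0.15 with *ppp-1(wrm15)*. With the alleles in the same order it was -0.17 and -0.15 in polysomes, and -0.14 and -0.22 in monosomes. The GST genes had medians of -0.11 and -0.13 in total RNA, -0.18 and -0.23 in polysomes, and -0.13 and -0.33 in monosomes. CYP genes had medians of -0.07 and -0.05, of -0.09 and 0.01, and of -0.03 and 0.01. Over all loci the medians were -0.06 and -0.03 in total RNA, -0.05 and -0.01 in polysomes, and -0.04 and -0.03 in monosomes. All of these medians are smaller than 1.5-fold.

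In total RNA, 80 of the 106 members (75.5%) lay below WT by any amount in *ppp-1(wrm10)*, against 61.4% of all loci, and 74 (69.8%) in *ppp-1(wrm15)*, against 56.4%. Polysomes gave 85 members (80.2%) against 60.3% in the first allele and 69 members (65.1%) against 52.8% in the second. Monosomes gave 75 members (70.8%) against 57.0% and 77 members (72.6%) against 53.7%. The UGT genes contributed 39 of 44 in *ppp-1(wrm10)* polysomes, and the CYP genes 15 of 34 in *ppp-1(wrm15)* polysomes.

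At a smaller size, 0.32 on the log2 scale in both alleles, 11 members (10.4%) were lower in total RNA, against 4.39% of all loci, and 3 (2.83%) were higher, against 11.5%. Polysomes held 15 lower members (14.2%), against 5.66%, and 4 higher members (3.77%), against 10.5%. Monosomes held 13 lower members (12.3%), against 6.16%, and 3 higher members (2.83%), against 12.5%. Of the lower ones, 6 of 11, 8 of 15 and 7 of 13 were UGT genes in total RNA, polysomes and monosomes.

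Summed over each family, the signal showed the same lean. The 63 UGT genes summed to 994 FPKM in *ppp-1(wrm10)* and 1054 FPKM in *ppp-1(wrm15)* polysomes, against 1148 FPKM in WT, which is 13.4% and 8.15% lower. The 46 GST genes summed to 1042, 1107 and 1185 FPKM in these groups, 12% and 6.59% lower. In monosomes the UGT sums were 581, 535 and 649 FPKM and the GST sums 536, 522 and 617 FPKM. The 80 CYP genes summed to 294, 329 and 312 FPKM in polysomes, with *ppp-1(wrm10)* below and *ppp-1(wrm15)* above WT.

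Intestinal marker genes also had lower sums in both ribosomal fractions. So had every other marker list, except germline and oocyte genes in *ppp-1(wrm15)*. All 9 measured of 10 listed intestinal markers had a mean of at least 1 FPKM and none was at 0. They summed to 9315 FPKM in *ppp-1(wrm10)* and 10747 FPKM in *ppp-1(wrm15)* polysomes, against 11471 FPKM in WT. In monosomes they summed to 8979, 10157 and 12488 FPKM, and in total RNA to 7570, 8315 and 7932 FPKM. Their median change was -0.23 and -0.03 in polysomes and -0.30 and -0.25 in monosomes. Body wall muscle markers (6 of 6 measured) had medians of -0.32 and -0.46 in monosomes. In polysomes they summed to 1861 FPKM in *ppp-1(wrm10)*, 1749 in *ppp-1(wrm15)* and 2178 in WT. Hypodermal markers summed to 1745, 1932 and 2100 FPKM in these groups, and germline and oocyte markers to 1351, 1602 and 1472 FPKM. Most of the hypodermal sum was *col-19*, with 1451, 1651 and 1921 FPKM. The other hypodermal markers were above WT in polysomes of both alleles, and the median change of the list there was 0.61 and 0.42. Hypodermal medians for monosomes were 0.46 and 0.41, also above WT although the sums were lower. The part of tissue makeup in the lean of the UGT and GST values was not tested.

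Among the phase I enzymes, the gene at least 1.5-fold higher in both alleles was *cyp-25A1* on chromosome III (3832591 to 3834522, WBcel235, plus strand, from the start of the annotated gene to near its end, introns included). It had 2.34 FPKM in *ppp-1(wrm10)*, 2.06 in *ppp-1(wrm15)* and 1.19 in WT total RNA, changes of 0.93 and 0.74. In monosomes it had 2.22, 2.01 and 1.18 FPKM, changes of 0.86 and 0.72. In polysomes the values were 4.25, 4.44 and 3.19 FPKM, and the changes of 0.40 and 0.46 stayed under 1.5-fold. Both alleles were thus above WT in all 3 fractions, at a low level.

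Its neighbours in the same array of CYP genes had smaller changes. *cyp-25A2* had 6.20, 7.73 and 5.47 FPKM in *ppp-1(wrm10)*, *ppp-1(wrm15)* and WT total RNA, with changes of 0.18 and 0.49. For *cyp-25A3* the changes in total RNA were 0.06 and -0.06.

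*cyp-35A2*, which foreign compounds induce strongly in the worm and which bears on fat storage, was next in size. It had 10.1, 10.2 and 7.44 FPKM in total RNA of *ppp-1(wrm10)*, *ppp-1(wrm15)* and WT, 17.9, 19.2 and 13.4 FPKM in polysomes, and 9.19, 9.89 and 7.05 FPKM in monosomes. Its changes lay between 0.38 and 0.52 in all 6 comparisons, short of 1.5-fold. *cyp-35B1*, on the same chromosome, had under 0.1 FPKM in every group.

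*cyp-34A8* (chromosome V, 3964779 to 3967880, minus strand) was the CYP gene at least 1.5-fold lower in both alleles in a fraction. Its monosome value was 4.41 FPKM in *ppp-1(wrm10)* and 4.38 FPKM in *ppp-1(wrm15)*, against 6.71 FPKM in WT, a change of -0.60 in each. Polysomes gave 8.21, 8.82 and 13.1 FPKM, with changes of -0.67 and -0.57, and total RNA 5.1, 5.19 and 7.23 FPKM, with changes of -0.49 and -0.47. All 6 mutant values thus lay below WT, close to the 1.5-fold mark on either side of it. Centred on the median of all loci, the monosome call was lost.

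Other CYP genes, often studied or of known role, had smaller differences in both alleles, each under 1.5-fold in the fraction given. *cyp-14A5* had 5.33, 4.34 and 6.48 FPKM in *ppp-1(wrm10)*, *ppp-1(wrm15)* and WT total RNA, changes of -0.28 and -0.57. *cyp-37A1*, whose locus overlaps a gene on the opposite strand, had changes of 0.16 and 0.29, *cyp-42A1* of -0.02 and 0.11, and *cyp-29A2* of 0.02 and -0.25 in total RNA. *cyp-33E2*, which makes eicosanoids from polyunsaturated fatty acids, had changes of 0.12 and 0.52 in polysomes. *cyp-13A12*, known for oxidizing such fatty acids on reoxygenation, had -0.33 and 0.27 there, so the alleles lay on opposite sides of WT. *cyp-36A1*, a CYP gene linked to the worm's response to low oxygen, had -0.31 and -0.08. The *cyp-36A1* locus spans 2.09 times its annotated gene and overlaps *figo-1* on the opposite strand. Below the minimum level, the rifampicin-inducible *cyp-13A7* stayed at or under 0.64 FPKM in every group.

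Among the phase II enzymes with a mean of at least 1 FPKM, *ugt-26* had the lowest mean change over alleles and fractions, -0.80. It lies on chromosome I (4721131 to 4723960, plus strand). In *ppp-1(wrm10)* alone, *ugt-13* was further below WT in each fraction. The polysome value of *ugt-26* was 53.5 FPKM in *ppp-1(wrm10)* and 41.0 FPKM in *ppp-1(wrm15)*, against 84.8 FPKM in WT, changes of -0.66 and -1.05. Total RNA gave 27.7, 20.4 and 40.4 FPKM (-0.54 and -0.98), and monosomes 23.8, 16.6 and 34.2 FPKM (-0.52 and -1.04). The *ppp-1(wrm15)* value was the lowest in each fraction and the WT value the highest. Of the 4 members called in both alleles it was the one with a mean above 10 FPKM.

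Several UGT genes were lowest in *ppp-1(wrm15)*, by a margin that depended on the fraction. *ugt-29* had 13 FPKM in *ppp-1(wrm10)* and 8.21 FPKM in *ppp-1(wrm15)* monosomes, against 14.5 FPKM in WT, changes of -0.15 and -0.81. *ugt-31* had 5.46, 3.44 and 6.19 FPKM in total RNA (-0.18 and -0.83). In polysomes both alleles were lower for these genes. The ratios of mutant to WT FPKM there were 0.75 and 0.62 for *ugt-29* and 0.79 and 0.57 for *ugt-31*. *ugt-53* had 2.31, 1.32 and 2.99 FPKM in monosomes (-0.36 and -1.12), and 2.59, 1.44 and 2.39 FPKM in total RNA (0.11 and -0.69). In contrast, *ugt-13* was lowest in *ppp-1(wrm10)*, with 6.76, 8.47 and 12.1 FPKM in polysomes (-0.84 and -0.52). *ugt-7* was below WT by similar amounts in both alleles, with 3.69, 3.40 and 5.23 FPKM in polysomes (-0.49 and -0.61).

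A few UGT genes lay above WT. *ugt-6* had 7.37 FPKM in *ppp-1(wrm10)* and 6.78 FPKM in *ppp-1(wrm15)* polysomes, against 5.04 FPKM in WT, changes of 0.54 and 0.42. *ugt-5*, which lies in the same array, had changes of 0.45 and 0.45 in total RNA but of 0.19 and 0.03 in polysomes. *ugt-51* had 3.02, 2.68 and 1.97 FPKM in polysomes (0.59 and 0.43), though its locus spans 13.69 times its annotated gene and covers several other genes. The most abundant members were near WT: *ugt-62* had 261, 335 and 312 FPKM in polysomes (-0.26 and 0.11) and *ugt-22* had 79.5, 75.5 and 76.9 FPKM (0.05 and -0.03). *ugt-1* and *ugt-2*, neighbours at nearly the same level, had polysome changes of -0.04 and -0.07, and of -0.33 and -0.01.

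Of the GST genes, *gst-35* (chromosome II, 15183801 to 15185385, minus strand) was lower in polysomes of both alleles. It had 1.41 FPKM in *ppp-1(wrm10)* and 1.41 FPKM in *ppp-1(wrm15)* polysomes, against 2.37 FPKM in WT, a change of -0.71 in each. Total RNA held 0.96, 0.62 and 0.95 FPKM (0.02 and -0.55), and in monosomes 0.81, 0.70 and 0.88 FPKM (-0.11 and -0.28). The *ppp-1(wrm10)* value thus stood apart from WT in polysomes only, in a gene with a mean of 1.12 FPKM.

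Abundant and well-studied GST genes had smaller differences. *gst-4* had 9.38, 9.46 and 12.1 FPKM in *ppp-1(wrm10)*, *ppp-1(wrm15)* and WT total RNA (-0.36 and -0.35), and 22.9, 20.5 and 28.3 FPKM in polysomes (-0.30 and -0.46). Its locus overlaps *dhs-12* on the same strand. *gst-27* had 74.3, 77.8 and 94.5 FPKM in polysomes (-0.35 and -0.28). For *gst-10*, which conjugates the lipid peroxidation product 4-hydroxynonenal, the polysome values were 37.7, 34.5 and 40.3 FPKM (-0.09 and -0.22). *gst-42*, a zeta-class enzyme of tyrosine breakdown, had 18.9, 18.2 and 21.5 FPKM (-0.18 and -0.24). *gst-1* and *gst-7* had changes of -0.11 and -0.01 and of -0.18 and 0.06 in polysomes.

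Not all GST genes lay on the lower side, with 21 of 28 below WT in *ppp-1(wrm10)* and 20 of 28 in *ppp-1(wrm15)* total RNA. *gst-39* had 9.99 FPKM in *ppp-1(wrm10)* and 12.3 FPKM in *ppp-1(wrm15)* total RNA, against 8.07 FPKM in WT, changes of 0.30 and 0.60. *gst-22* had 16.9, 17.3 and 15.1 FPKM in polysomes (0.17 and 0.19), though its locus spans 1.69 times its annotated gene and overlaps *F21H7.12* on the opposite strand. In *ppp-1(wrm15)* monosomes, 24 of the 28 GST genes lay below WT, with *gst-28* at 15.7 FPKM in *ppp-1(wrm10)*, 12.9 in *ppp-1(wrm15)* and 19.8 in WT (-0.33 and -0.61). *gst-30* had -0.29 and -0.91 in that fraction.

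**Figure D4:**
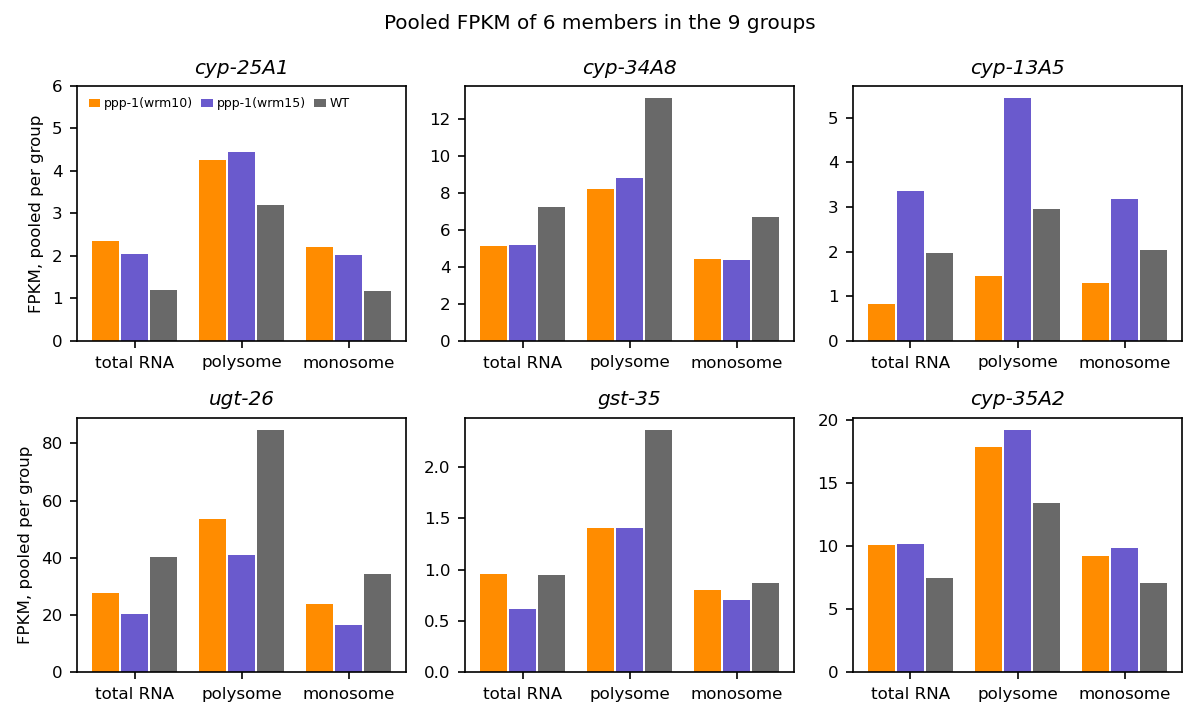
Pooled FPKM (y axis, from 0, scaled for each gene) of *cyp-25A1*, *cyp-34A8*, *cyp-13A5*, *ugt-26*, *gst-35* and *cyp-35A2* in total RNA, polysomes and monosomes of *ppp-1(wrm10)*, *ppp-1(wrm15)* and WT. Each bar is 1 pooled value with no error; *cyp-13A5* lies below WT in *ppp-1(wrm10)* and above it in *ppp-1(wrm15)* in all 3 fractions.

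Counted singly, the alleles gave more members past 1.5-fold. In total RNA of *ppp-1(wrm10)*, 1 member was higher (all loci: 10.1%) and 3 were lower (2.11%). In total RNA of *ppp-1(wrm15)*, 4 were higher (9.26%) and 5 were lower (3.11%). In polysomes, *ppp-1(wrm10)* had 1 higher (9.01%) and 6 lower (3.16%), and *ppp-1(wrm15)* had 2 higher (8.36%) and 7 lower (3.82%). In monosomes, *ppp-1(wrm10)* had 1 higher (11.7%) and 3 lower (2.48%), and *ppp-1(wrm15)* had 2 higher (10.3%) and 12 lower (4.43%). The 12 comprised 6 GST, 5 UGT and 1 CYP genes, 11.3% of the 106 members.

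The alleles differed from each other by 1.5-fold or more for 5 members in total RNA, against 3.83% of all loci, for 3 members in polysomes, against 3.89%, and for 8 in monosomes, against 4.84%. *cyp-13A5* (chromosome II, 9798277 to 9800363, minus strand) had the largest such gap. It had 0.83 FPKM in *ppp-1(wrm10)* and 3.36 FPKM in *ppp-1(wrm15)* total RNA, against 1.96 FPKM in WT, changes of -1.15 and 0.74. Polysomes gave 1.45, 5.44 and 2.96 FPKM (-0.98 and 0.86), and monosomes 1.3, 3.18 and 2.04 FPKM (-0.61 and 0.62). WT thus lay between the alleles in every fraction. *cyp-34A9* had 0.82 FPKM in *ppp-1(wrm10)* and 2.09 FPKM in *ppp-1(wrm15)* polysomes, against 1.00 FPKM in WT, so that *ppp-1(wrm15)* alone was apart (-0.25 and 1.00).

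Polysome levels relative to total RNA were close to those of WT. The median change of log2(polysome/total) for CYP genes was -0.03 with *ppp-1(wrm10)* and 0.07 with *ppp-1(wrm15)*. It was -0.03 and 0.04 for UGT and -0.01 and -0.08 for GST genes, while all loci had -0.02 and 0.00. In *ppp-1(wrm15)*, 24 of 28 GST genes (85.7%) had a change below 0, against 49.9% of all loci. For CYP and UGT genes these shares were 35.3% and 38.6%. In *ppp-1(wrm10)* the GST share was 57.1%, against 53.6% of all loci. With the monosome value as the denominator, the GST median in *ppp-1(wrm15)* was 0.11 in place of -0.08, and the UGT median there was also 0.11. The CYP median there was 0.04, and that of all loci 0.02. In *ppp-1(wrm10)* the medians with this denominator were -0.11 for CYP, -0.03 for UGT and -0.06 for GST genes. A change of at least 1.5-fold upward in both alleles was reached by 0 members, against 1.32% of all loci, and a downward one by 0 members, against 1.86%.

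For members named here, *cyp-25A1* had a ratio of polysome to total FPKM of 1.81 in *ppp-1(wrm10)*, 2.16 in *ppp-1(wrm15)* and 2.69 in WT. For *gst-35* the ratios were 1.46, 2.27 and 2.49, and for *gst-39* they were 2.12, 2.09 and 2.47. *cyp-29A2* went the other way, with 1.71, 1.71 and 1.48. *gst-9* had changes of 0.50 and 0.25 on the log2 scale and *ugt-24* of -0.09 and -0.75. The *gst-9* locus overlaps *msp-33* on the opposite strand, so its value may include other reads.

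By position, 107 of the 189 members lay in 28 arrays of the same family, with less than 10 kb between neighbours. Chromosome V carried 92 members, among them 44 CYP and 39 UGT genes, while 25 of the 46 GST genes lay on chromosome II. Neighbours differed widely in level. In the array of 9 GST genes on chromosome II (15163808 to 15185385), the mean FPKM over the groups ranged from 0.16 to 74.1 (*gst-27*), 456-fold. In the array of 4 UGT genes on chromosome I, it ranged from 0.074 to 38.0 (*ugt-26*). Only 5 of the 9 GST genes and 3 of the 4 UGT genes there had a mean of at least 1 FPKM.

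Neighbours also differed in their change. *cyp-34A8* and *cyp-34A9* lie side by side on the minus strand of chromosome V, with polysome changes of -0.67 and -0.57 for the first and of -0.25 and 1.00 for the second. Beside *ugt-26*, *ugt-28* had polysome changes of -0.19 and -0.23 and *ugt-25* of -0.08 and -0.12. In the GST array, *gst-26*, *gst-27* and *gst-28* had between -0.35 and -0.23, while *gst-39* had 0.09 and 0.36.

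**Figure D5:**
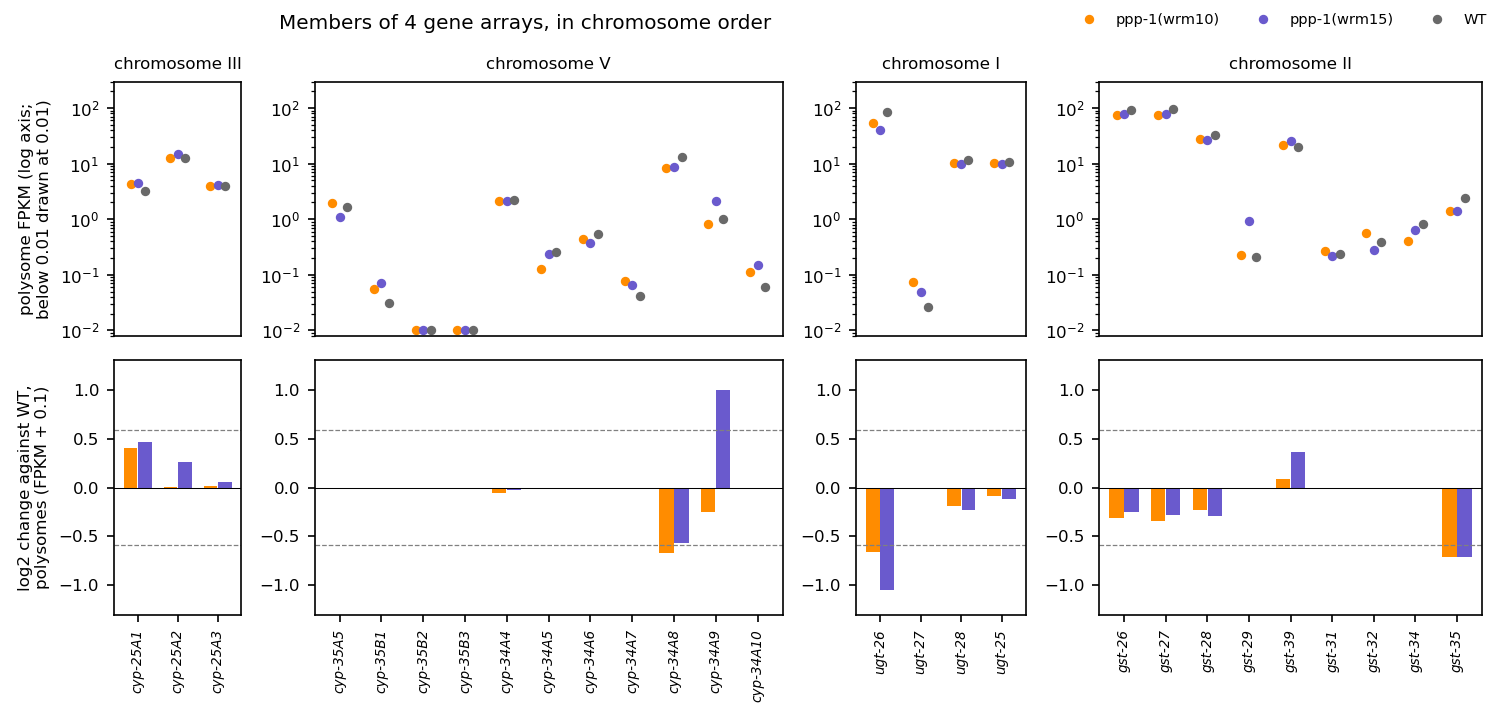
Members of the 4 arrays that hold *cyp-25A1*, *cyp-34A8*, *ugt-26* and *gst-35*, in chromosome order (not to scale). The upper panels show polysome FPKM of *ppp-1(wrm10)*, *ppp-1(wrm15)* and WT on a log axis. The lower panels show the log2 change in polysomes against WT for members with a mean of at least 1 FPKM, with 1.5-fold dashed. These 4 genes stand beside neighbours with smaller or opposite changes. In polysomes *ugt-26* and *gst-35* are called, while the calls of *cyp-25A1* and *cyp-34A8* are in fractions not shown.

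The 83 members with a mean below 1 FPKM were described apart, since ratios of such values are unstable. None of their values exceeded 1.96 FPKM, and 32 members had a mean below 0.1 FPKM. In total RNA 3 of them were at least 1.5-fold higher in both alleles and 5 were lower, against 4.92% and 5.70% of the 8924 loci below 1 FPKM that were above 0 in some group. In polysomes these were 3 and 2, against 5.13% and 3.68%, and in monosomes 3 and 5, against 6.29% and 5.36%. *cyp-37B1* was higher in all 3 fractions and *cyp-13A10* lower in all 3.

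Most genes that work with these families were not past 1.5-fold in both alleles, and the exceptions with a mean of at least 1 FPKM are named below. Of 16 measured genes of electron supply and other phase I reactions with a mean of at least 1 FPKM, 0 were past 1.5-fold in both alleles in any fraction. *emb-8*, the reductase that feeds electrons to P450 enzymes, had 48.1 FPKM in *ppp-1(wrm10)*, 46.8 in *ppp-1(wrm15)* and 48.2 in WT total RNA. The alcohol dehydrogenase *sodh-1* was apart in *ppp-1(wrm15)* alone, with 22, 48.0 and 24.7 FPKM in polysomes (-0.17 and 0.95). Of 9 conjugation and cofactor genes, 1 was lower in monosomes, the methyltransferase homologue *comt-5*, with 1.05, 1.11 and 1.92 FPKM (-0.81 and -0.74), where 1.39% of all loci were lower. *gcs-1*, which makes the first step of glutathione synthesis, had 38.3, 39.6 and 44.6 FPKM in total RNA (-0.22 and -0.17). *sqv-4*, which makes UDP-glucuronic acid, had 88.9, 99.5 and 95 FPKM (-0.10 and 0.07).

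Of 19 export genes, 2 were lower in both alleles in total RNA (all loci: 1.05%) and in polysomes (1.79%) and 1 in monosomes (1.39%). These were the P-glycoproteins *pgp-5* and *pgp-6*, pumps of the ABC transporter type. *pgp-5* had 10.0 FPKM in *ppp-1(wrm10)* and 7.78 FPKM in *ppp-1(wrm15)* polysomes, against 18.8 FPKM in WT (-0.90 and -1.26). *pgp-6* had 14.9, 11.1 and 27.4 FPKM (-0.87 and -1.29). Over the 19 genes the median change in total RNA was -0.02 and -0.05. Of 15 regulators, 0 were past 1.5-fold in both alleles, and the list medians lay between -0.14 and -0.01. *skn-1*, the master regulator of *gst-4* and other phase II genes, had 34.3, 36.9 and 39.9 FPKM in polysomes (-0.22 and -0.11). The intestinal GATA factor *elt-2* had 14.6, 15.6 and 15.7 FPKM (-0.11 and -0.01).

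Of the other cell type markers, hypodermal genes (6 of 6 measured) had median changes of 0.68 and 0.48 in total RNA. Of these, 2 were at least 1.5-fold higher in both alleles there, against 7.76% of all loci. The most abundant, *col-19*, went the other way, with 1038, 1040 and 1135 FPKM in total RNA (-0.13 and -0.13), while the others were above WT there. *col-19* was below WT in the other fractions too. Summed, the hypodermal genes had 1277, 1237 and 1250 FPKM in total RNA. Germline and oocyte genes (8 of 8) had medians of -0.04 and 0.06 in total RNA and of -0.09 and 0.24 in polysomes. Sperm genes (8 of 8) summed to 1295 FPKM in *ppp-1(wrm10)* and 1403 FPKM in *ppp-1(wrm15)* polysomes, against 2034 FPKM in WT, and to 1046, 1098 and 1097 FPKM in total RNA. In polysomes 3 of them, all *msp* genes, were lower in both alleles and 2, *spe-9* and *spe-44*, were higher, against 1.79% and 6.70% of all loci. Neuronal genes (7 of 7), excretory canal genes (3 of 3) and coelomocyte genes (2 of 2) had 0 members past 1.5-fold in both alleles. No marker was at 0 in all groups. Their part in the values of the enzyme families was not tested.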

How the data were processed

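Total, monosome and polysome RNA of *ppp-1(wrm10)*, *ppp-1(wrm15)* and WT day 1 adults was sequenced by the authors after ribosomal RNA depletion (HiSeq2000), with 4 libraries per group by the labels. According to the paper and the submitters' processing notes, reads were mapped with HISAT2 2.1.0 (WBcel235), assembled with StringTie 1.3.4d on Ensembl 91, merged with Cuffmerge, and quantified and compared with Cuffquant and Cuffdiff (Cufflinks 2.2.1). How that run normalized libraries is not given in the sources used here. FPKM values were deposited by the authors, pooled to 1 value per group and locus. Their table repeats it for all 36 pairs of groups (1507500 lines) and adds fold changes, test statistics, p-values and q-values of the authors' own comparisons, which were not used. The table gives no counts and no values per library, so depth and replicate spread are unknown and only sizes are described.

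Values were read with Python 3.11.15 and pandas 2.3.3 and plotted with matplotlib 3.10.9. Loci with joined names (3085) were left out, as were loci with a mean under 1 FPKM over the groups, and 0.1 FPKM was added before log2. The counting was tested on simulated data. Positions follow the table. The WBcel235 annotation of Ensembl 115 matched 182 members by symbol and 7 by position, of which 6 are pseudogenes and *cyp-34A4* is annotated as *dach-1*. The table's loci exceed 2 times the annotated gene for 10 members, and 25 members overlap another coding gene. Whether counting used strand is likewise not given. No sequences are shown.

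The members, lists and sizes were chosen with earlier results of these data known. Named in each family were the members past 1.5-fold in both alleles in any fraction (at most 10 of a family), the 3 with the highest level, the 2 with the largest difference between alleles and the 2 with the largest change of log2(polysome/total) each way (mean of at least 5 FPKM), and a fixed set of often studied genes, 40 in all. *cyp-44A1* of that set is joined to *npp-24*. Other members were named after their values were seen. *adh-1* and *opt-2* of the lists were not matched. As both *ppp-1* alleles are point mutations, its RNA cannot serve as a check of the labels.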

Additional observations from a re-analysis of the deposited data

Results flagged for a closer look

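*cyp-13A5* was past 1.5-fold in opposite directions in the alleles, lower than WT in *ppp-1(wrm10)* and higher than WT in *ppp-1(wrm15)*. The change in *ppp-1(wrm15)* minus that in *ppp-1(wrm10)* was 1.90 in total RNA, 1.83 in polysomes and 1.22 in monosomes on the log2 scale. The difference was not tested, since each group has 1 pooled value. Of all 12488 loci, 19 were past 1.5-fold in opposite directions in total RNA, 15 in polysomes and 15 in monosomes, and *cyp-13A5* was the 1 member among them in each fraction.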

How the results depend on the processing

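No paired analysis was possible because the table holds 1 pooled value per group and its columns carry no replicate numbers, and no replicate could be left out for the same reason. The counts of members past the size in both alleles are small and moved with most settings. In the order of total RNA, polysomes and monosomes, higher members numbered 1, 0 and 1 and lower members 0, 2 and 1. A pseudocount of 1 FPKM gave 0, 0 and 0 higher and 0, 1 and 0 lower. With no filter on low values these were 4, 3 and 4 higher and 5, 4 and 6 lower. A minimum of 5 FPKM gave 0, 0 and 0 higher and 0, 1 and 1 lower. At 2-fold all were 0. At a size of 0.32 on the log2 scale they were 3, 4 and 3 higher and 11, 15 and 13 lower. The mean of both alleles gave 1, 0 and 1 higher and 1, 4 and 5 lower. Centring on the median of all loci left 0 lower members in monosomes, and the other counts stayed as they were. A pseudocount of 0.01 FPKM changed none of the counts. Leaving out members whose locus is long or overlaps another coding gene, chosen after seeing the data, changed none either.

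All 18 family medians of the change stayed within 0.1 on the log2 scale under every setting run, with a largest shift of 0.09. The CYP medians were themselves smaller than 0.1, so this width cannot show that their sign holds. Of the medians of the change in log2(polysome/total), the GST median in *ppp-1(wrm15)* became 0.11 with the monosome value as the denominator, and the other 5 stayed within 0.1. The WT medians of log2(polysome/total) for CYP, UGT and GST genes were 0.57, 0.62 and 0.76 with a pseudocount of 1 FPKM, 0.53, 0.63 and 0.78 with no filter, and 0.68, 0.68 and 0.86 after centring. Changes of named members were rerun only with a pseudocount of 1 FPKM and with centring. Of these 480 values, 21 moved by more than 0.1, with a largest shift of 0.92. That 0 of those past 1.5-fold changed sign was fixed beforehand. A pseudocount cannot change a sign, and the all-loci median furthest from 0 was -0.06.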

Other observations

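In 3 loci a family gene is joined to another gene under 1 name, so the value belongs to no single gene. *cyp-44A1* with *npp-24*, a nucleoporin gene, had 47.9 FPKM in *ppp-1(wrm10)*, 51.5 in *ppp-1(wrm15)* and 57.3 in WT total RNA. *gei-4* with *gsto-3* had 33.9, 32.3 and 31 FPKM, and *ugt-37* with *ugt-40* had 0.69, 0.65 and 0.73 FPKM.

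Below the minimum of 1 FPKM or outside the families, a few genes were apart in both alleles or in 1 of them. The flavin monooxygenase *fmo-2*, with a mean of 0.53 FPKM, had 0.30 FPKM in *ppp-1(wrm10)* and 1.62 FPKM in *ppp-1(wrm15)* polysomes, against 0.23 FPKM in WT. The sulfotransferase *ssu-1* had 0.33, 0.26 and 0.58 FPKM in polysomes, with both alleles below WT. *pgp-1* had 7.20 FPKM in *ppp-1(wrm10)* and 15.6 FPKM in *ppp-1(wrm15)* polysomes, against 18 FPKM in WT, and *pgp-14* had 13.9, 8.82 and 14.7 FPKM in these groups. None of these differences was tested.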
